A study of Oryza sativa with 4 samples.

Results

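The MCM helicase, PCNA and ORC1 genes encode proteins that prepare and copy chromosomal DNA, and their transcripts were followed here in rice leaves. Total RNA of leaves from 3-week-old Oryza sativa plants grown under normal conditions was hybridized to 1-colour Affymetrix rice arrays, with 2 arrays from plants that overexpress OsBIERF3 (OsBIERF3-OE) and 2 from wild type (WT). OsBIERF3 belongs to the ERF family of plant transcription factors. The labels call the 2 samples of a genotype biological replicates without saying if these were single plants or pools, so a p-value here measures only the spread between these samples. The promoter of the transgene, the number of independent lines and the cultivar are not given in the sources used here, and OsBIERF3 was not analysed here, which leaves the genotype labels unchecked by the transgene's own signal.

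Genes were taken where a symbol or synonym in the RefSeq gene table, with or without the prefix Os, was MCM2, MCM3, MCM4, MCM5, MCM6, MCM7, PCNA or ORC1. These 8 names led to 9 of the 17905 genes on the array, each read by 1 probe set, because 2 genes carry the name ORC1. They are LOC4340349, listed as ORC1 and OsORC1, and LOC4334180, listed as ORC5 and OsORC1, written ORC1/ORC5 below. The names were chosen from genes already seen to be higher in OsBIERF3-OE than in WT on these same arrays, so their levels and differences between the genotypes are a description and carry no test.

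MCM2 to MCM7 are the subunits of a ring-shaped complex that is loaded onto double-stranded DNA before S phase and becomes the core of the replicative helicase. The origin recognition complex, of which ORC1 and ORC5 are subunits, marks replication origins and loads the ring together with CDC6 and CDT1. PCNA is the sliding clamp that holds DNA polymerases and many repair and chromatin proteins on the template. In grass leaves, cell division takes place mainly at the leaf base while cells further up expand and differentiate, and transcripts of these genes are widely used as marks of proliferating cells.

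Every OsBIERF3-OE array gave a higher signal than every WT array for all 9 genes. Signal is the deposited intensity on a linear scale, and a log2 change is the mean log2 signal of OsBIERF3-OE minus that of WT. Each array's background level was set at its brightest probe set among 33 controls for foreign genes, which came to 25.1 to 28.0. By that level all 9 genes were above background on both OsBIERF3-OE arrays, whereas only 3 of them, MCM2, MCM4 and PCNA, were so on both WT arrays and the other 6 on neither. For those 6 the fold is a lower bound, the OsBIERF3-OE mean against the WT mean with each WT array raised to its background level.

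**Figure D1:**
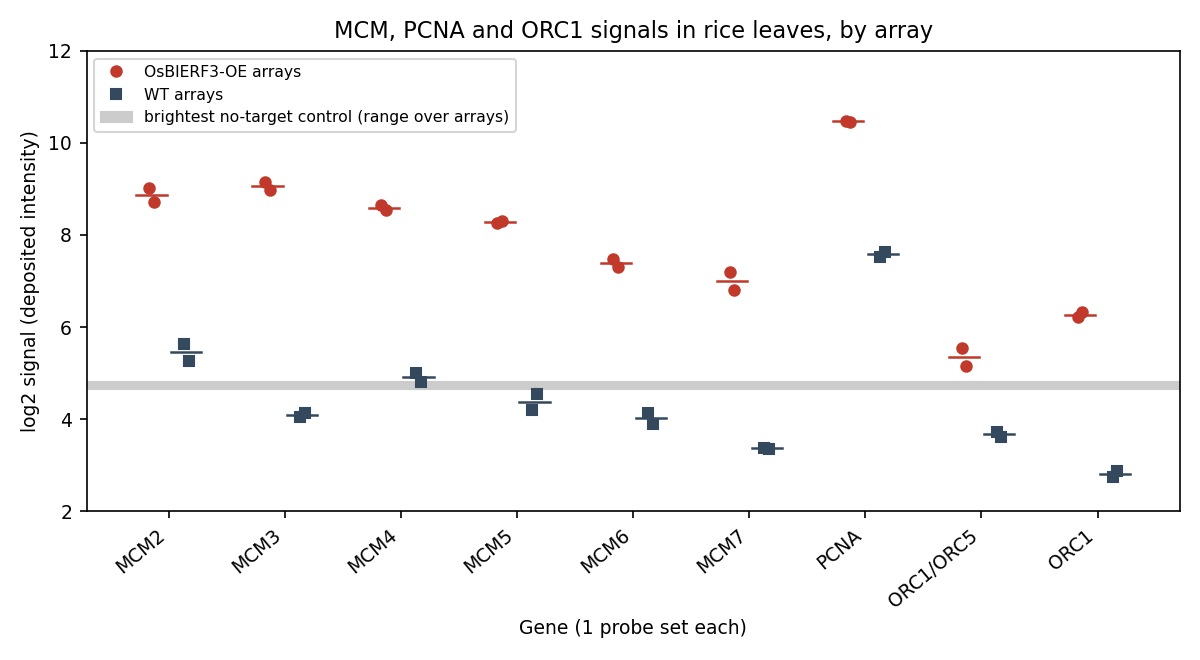
Log2 signal of the 9 genes on each array (circles, OsBIERF3-OE; squares, WT; short lines, group means; grey band, the brightest no-target control over the 4 arrays, 25.1 to 28.0 on the linear scale). The OsBIERF3-OE points of each gene lie above both its WT points, and the WT points of 6 genes lie under the band.

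Among the helicase genes, MCM2 (LOC4350526) had signals of 519.9 and 424 on the OsBIERF3-OE arrays, against 49.7 and 38.5 on the WT arrays. It averaged 472 ± 68.2 in OsBIERF3-OE and 44.1 ± 7.95 in WT (SD, n = 2 each), a log2 change of 3.42 with a standard error of 0.19. The groups did not overlap, and the 4 ratios of an OsBIERF3-OE array to a WT array ran from 8.52 to 13.5.

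MCM4 (LOC107275673) gave 402 and 371 in OsBIERF3-OE, against 31.9 and 28.2 in WT, where it lay just above the background controls. Its log2 change was 3.69 ± 0.15 (SE), a 12.9-fold difference, and the array-to-array ratios lay between 11.6 and 14.2. MCM2 and MCM4 are the helicase subunits whose fold was measured on both sides.

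For MCM3 (LOC4339099) the signals were 565 and 503 in OsBIERF3-OE, against 16.6 and 17.6 in WT, where neither array was above background. The difference was at least 20.9-fold, which is above the 10.7-fold of MCM2, the 12.9-fold of MCM4 and the 7.43-fold of PCNA, although these differences between genes were not tested, and it cannot be ranked against the 5 other genes that have only a lower bound.

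MCM5 (LOC4331016) read 306 and 315 in OsBIERF3-OE, against 18.4 and 23.5 in WT, a difference of at least 12.2-fold. MCM6 (LOC4338176) read 179 and 159 in OsBIERF3-OE, against 17.6 and 14.96 in WT, at least 6.62-fold. MCM7 (LOC4352514) read 147 and 111 in OsBIERF3-OE, against 10.4 and 10.2 in WT, at least 5.01-fold. In all 3 the genotypes were wide apart compared with the distance between the arrays of a genotype and WT was under the background level. The 6 helicase subunits were all higher in OsBIERF3-OE, with fitted log2 changes between 3.38 for MCM6 and 4.96 for MCM3.

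PCNA (LOC4331062), the clamp, was above background on every array. It gave 1430.4 and 1409 in OsBIERF3-OE, against 185 and 198 in WT. The mean was 1419.8 ± 14.9 in OsBIERF3-OE and 191 ± 9.20 in WT (SD, n = 2 each), a 7.43-fold difference, and its log2 change of 2.89 had the smallest standard error of the 9 genes, 0.11. The array-to-array ratios ran only from 7.13 to 7.75.

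Both origin recognition genes named ORC1 were under background in WT. ORC1 (LOC4340349) gave 74.5 and 80.0 in OsBIERF3-OE, against 6.69 and 7.30 in WT. The genotypes did not overlap, but the fitted log2 change of 3.47 is bounded at a fold of at least 3.03. ORC1/ORC5 (LOC4334180) gave 47.0 and 35.4 in OsBIERF3-OE, against 13.2 and 12.3 in WT, at least 1.60-fold with a fitted log2 change of 1.68. Both folds are lower bounds, so the pair of genes that share the name ORC1 cannot be ranked against each other.

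**Figure D2:**
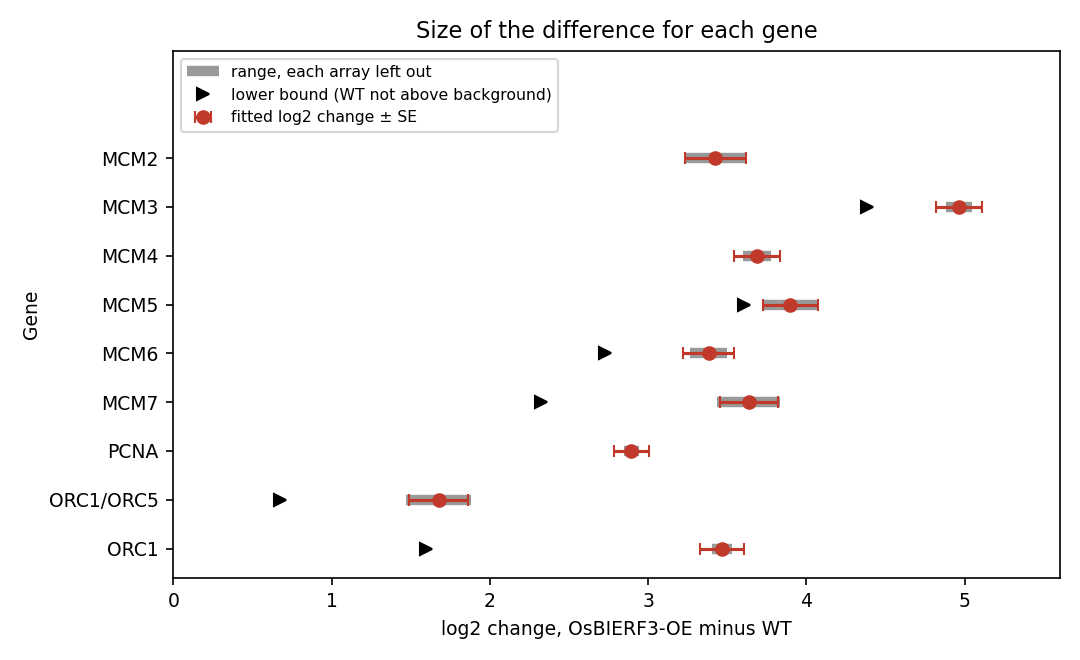
Fitted log2 change (OsBIERF3-OE minus WT, circles) with its standard error for the 9 genes, the range of the estimate when each array was left out (grey bars), and the lower bound where WT was not above background (triangles). All 9 estimates and all 6 bounds lie above 0. This was fixed by the choice of genes seen to be higher and by OsBIERF3-OE signals above background, so it adds no support. The 6 genes with a bound have no order among the estimates.

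The arrays of a genotype differed little for these genes. The widest gap between the arrays of 1 genotype was 0.41 on the log2 scale, for ORC1/ORC5 in OsBIERF3-OE, and the narrowest gap between an OsBIERF3-OE array and a WT array was 1.42, for the same gene. OsBIERF3-OE replicate 2 was dimmer than replicate 1 for 7 of the 9 genes, all but MCM5 and ORC1, and WT replicate 2 was dimmer than WT replicate 1 for 5. With each array left out in turn, the log2 change of MCM2 ran from 3.24 to 3.61, that of PCNA from 2.84 to 2.94 and that of ORC1/ORC5 from 1.47 to 1.88. With 2 arrays per genotype these ranges follow from the gaps between the arrays of a genotype and add no further support.

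All 9 probe sets passed the filter on dim signals, which kept probe sets with a mean log2 signal of at least 3.63 over the 4 arrays. For MCM7 and ORC1 the WT means of 3.36 and 2.81 were under that level, so they passed through their OsBIERF3-OE signals. In limma with Benjamini-Hochberg adjustment over 34355 probe sets, 9 of the 9 were called higher at an adjusted p of 0.05, as were 12.4% of all probe sets tested, while 11.8% were called lower. With 1 probe set per gene, the brightest, 17.2% of 15981 genes were called higher and 14.5% lower, and in 34.4% both OsBIERF3-OE arrays were above both WT arrays. The median log2 change was 3.47 for the 9 genes and -0.04 for all genes tested. The 3.47 is the fitted value of ORC1, whose WT signals were under background and whose fold is bounded at 3.03 or more. Since the genes were chosen on this contrast, nothing is read from these shares.

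The remaining genes of DNA replication were read from lists of gene names set by function, not by how each gene moved, although drawn up with results of these arrays known. Names on the 6 lists matched 45 genes in the gene table. Many other names on the lists, among them CDC6, CDT1, CDC45, E2F and RNR, matched no gene, so those genes were not read. Of the 45 genes, 38 were on the array and 37 were bright enough to test. Of these, 23 were called higher in the overexpressor, 1 was called lower and 13 did not pass, with a median log2 change of 0.73 beside -0.04 over all genes. Of the 23, ORC3 and RBR1 had WT means under the filter level and were tested only through their OsBIERF3-OE signals, so their p-values are no independent support; the other 21 were not limited in this way. Without WT replicate 2, 14 rose, and 12 of the 24 calls held under every alternative in which the gene's probe set was tested, among them those of RPA70B, CMT3 and MET1-2. The calls of ORC4, MCM9, RBR1 and H2B.7, 4 in all, rest on probe sets whose suffix marks them as possibly shared between genes. The shares of all genes called, 17.2% higher and 14.5% lower, are the background for these counts.

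**Figure D3:**
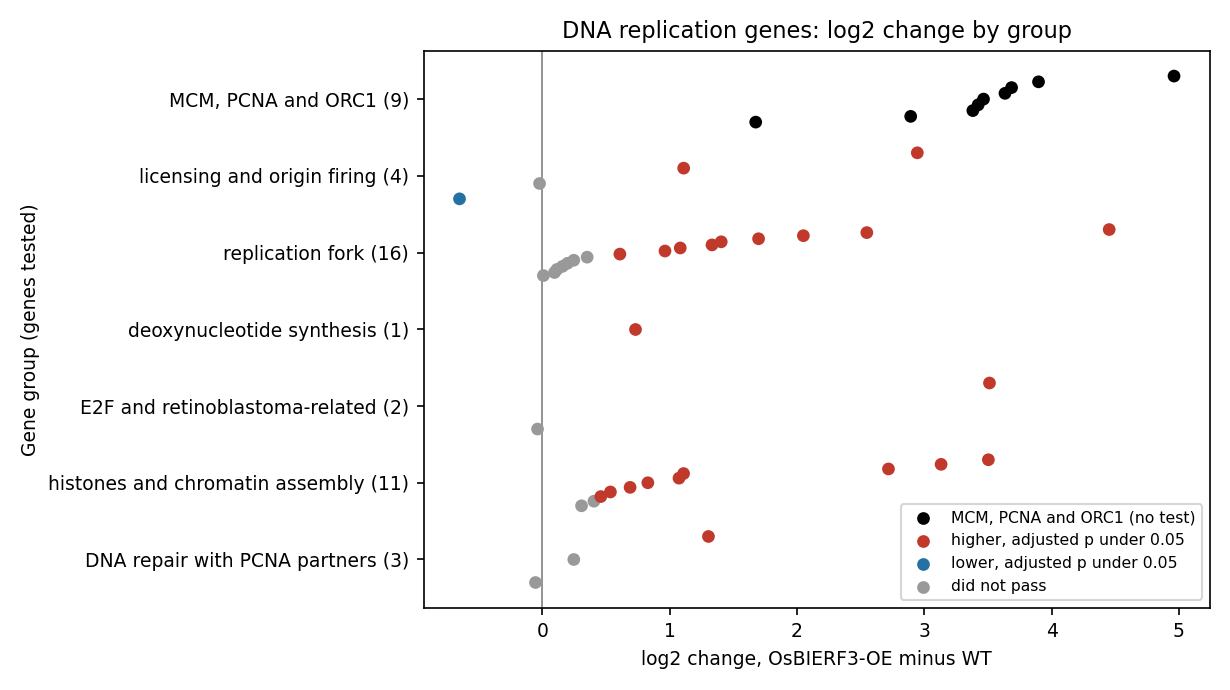
Log2 change (OsBIERF3-OE minus WT) of each tested gene, by group (black, the 9 genes MCM2 to MCM7, PCNA and ORC1; red, called higher; blue, called lower; grey, did not pass; limma adjusted p under 0.05). Among the 37 list genes, 23 are red, 1, MCM9, is blue and 13 are grey.

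In licensing and origin firing, 2 of 4 tested genes rose, 1 fell and 1 did not pass. ORC3 (LOC4348571), a further origin recognition subunit, gave 49.2 and 37.0 in OsBIERF3-OE, against 5.82 and 5.27 in WT, at least 1.67-fold (limma adjusted p = 0.000967, tested only through its OsBIERF3-OE signal). ORC4 (LOC4324139) rose 2.16-fold, to 87.7 ± 10.1 in OsBIERF3-OE, against 40.6 ± 4.01 in WT (SD, n = 2 each; limma adjusted p = 0.012), while its dimmer second probe set, above background on neither array of either genotype, did not pass. Without WT replicate 2 the call of ORC4 was lost (limma adjusted p = 0.0568).

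ORC2 (LOC4331860), measured well above background, read 182 and 178 in OsBIERF3-OE, against 184 and 181 in WT. Its log2 change was -0.02 ± 0.12 (SE; limma adjusted p = 0.915). Among the origin recognition genes on the array, the genotypes overlapped for ORC2, and ORC1, ORC1/ORC5 and ORC3 have only lower bounds, so these genes were not ranked by fold.

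The MCM family has members outside the MCM2 to MCM7 ring, MCM8 and MCM9, which were read separately. MCM9 (LOC4340503), a relative with roles in DNA repair in animals, read 104.3 and 105.0 in OsBIERF3-OE, against 159.9 and 169.0 in WT. It fell by 0.65 on the log2 scale (SE 0.13; limma adjusted p = 0.0238) on its brightest probe set; a second probe set, at 76.9 and 76.4 in OsBIERF3-OE and 129 and 105 in WT, did not pass (limma adjusted p = 0.0505). The call was lost whichever of the 4 arrays was left out (limma adjusted p between 0.0717 and 0.113) and with arrays scaled on hybridization controls, where the log2 change was -0.37. MCM8 (LOC4339038) was under background on all 4 arrays, at 5.03 and 5.27 in OsBIERF3-OE and 5.45 and 5.12 in WT, and was too dim to test.

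At the replication fork, 9 of 16 genes rose and 7 did not pass; none fell, also none at an unadjusted limma p under 0.05. The genes of replication protein A, the complex that coats single-stranded DNA, differed among themselves in whether they passed. RPA70B (LOC4332052), a large subunit, gave 546 and 537 in OsBIERF3-OE, against 28.7 and 21.3 in WT, above background on 1 of the 2 WT arrays (log2 change 4.45, limma adjusted p = 0.000329). RPA70C (LOC4337594) rose 4.14-fold, to 153 ± 23.0 in OsBIERF3-OE, against 36.8 ± 0.523 in WT (SD, n = 2 each; limma adjusted p = 0.00226). The other large subunit gene, RPA70A (LOC4330902), named here after its values were seen, read 248 and 213 in OsBIERF3-OE, against 204 and 222 in WT, so its genotypes overlapped (limma adjusted p = 0.607).

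A like spread was seen in the middle subunit of replication protein A. RPA32-1 (LOC4331236) gave 759 and 853 in OsBIERF3-OE, against 174 and 109 in WT, 5.85-fold (limma adjusted p = 0.00354). RPA32-3 (LOC9266781) gave 42.1 and 38.9 in OsBIERF3-OE, against 14.4 and 10.8 in WT, at least 1.59-fold (limma adjusted p = 0.00537). For RPA32-2 (LOC4330068), named after its values were seen, the log2 change was 0.20 ± 0.12 (SE; limma adjusted p = 0.295). The small subunit gene RPA14 (LOC4327706), also named after its values were seen, rose 1.52-fold (limma adjusted p = 0.023), a call lost whichever array was left out (limma adjusted p from 0.0513 to 0.11).

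The clamp loader, replication factor C, opens PCNA and places it on DNA. It and the partners of PCNA below were named to complete the families, after their values were seen. Of its 5 genes, RFC4 rose 2.12-fold (limma adjusted p = 0.0157) and RFC5 1.95-fold (limma adjusted p = 0.0213), and RFC1, RFC2 and RFC3 had log2 changes of 0.01, 0.25 and 0.09 and did not pass. The call of RFC4 was lost without WT replicate 1 (limma adjusted p = 0.0623) or WT replicate 2 (0.058), and that of RFC5 without OsBIERF3-OE replicate 1 (0.0653) or WT replicate 1 (0.074). Among partners of PCNA, the flap endonuclease gene FEN1A rose 2.52-fold, to 321.5 ± 34.4 in OsBIERF3-OE, against 128 ± 19.2 in WT (SD, n = 2 each; limma adjusted p = 0.00754), on the probe set above background. For FEN1B the log2 change was 0.35 (limma adjusted p = 0.148). The DNA polymerase delta subunit gene POLD2 rose 2.65-fold (limma adjusted p = 0.0144; 0.0636 without WT replicate 2), and the catalytic subunit gene POLD1 had a log2 change of 0.16 and did not pass (limma adjusted p = 0.499). PCNA itself stood at 7.43-fold, above each of these loader, endonuclease and polymerase genes, and its difference from them was not tested.

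**Figure D4:**
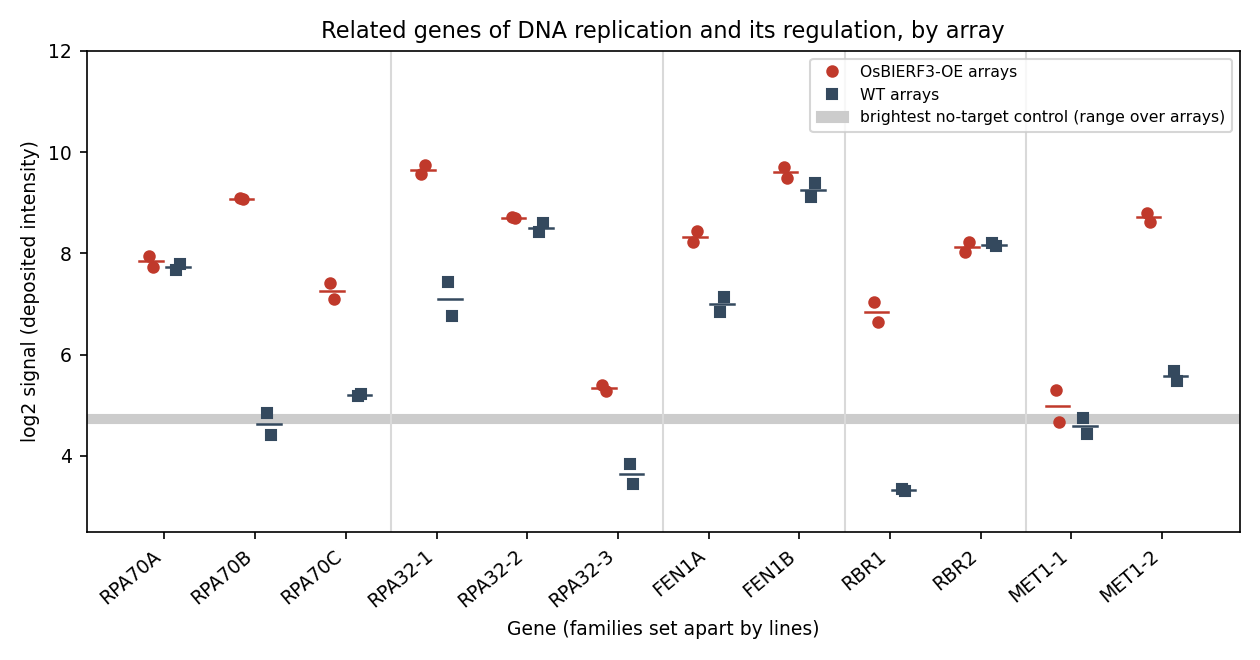
Log2 signal by array for related genes of replication protein A (RPA70 and RPA32), flap endonuclease (FEN1), retinoblastoma-related proteins (RBR) and the maintenance DNA methyltransferase (MET1); symbols and grey band as in the plot of the 9 genes by array. RPA70B, RPA32-1, RBR1 and MET1-2 are far apart between the genotypes, while RPA70A, RBR2 and MET1-1 overlap.

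Retinoblastoma-related proteins restrain E2F transcription factors, which in plants as in animals act on many genes of DNA replication. RBR1 (LOC4346176) gave 132 and 99.6 in OsBIERF3-OE, against 10.2 and 9.88 in WT, at least 4.48-fold (limma adjusted p = 0.00058, tested only through its OsBIERF3-OE signal), on 1 of its 2 probe sets; the other was under background on all 4 arrays. RBR2 (LOC4350648), named after its values were seen, read 261 and 301 in OsBIERF3-OE, against 295 and 281 in WT (limma adjusted p = 0.864). In deoxynucleotide synthesis the single gene tested, listed as TK (LOC4331376), rose 1.66-fold (limma adjusted p = 0.0194), and the call was lost without OsBIERF3-OE replicate 1 or 2 and without WT replicate 2, with limma adjusted p from 0.0614 to 0.0914.

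Among histones and proteins that act on newly copied chromatin, 9 of 11 tested genes rose, 2 did not pass and none fell, also none at an unadjusted limma p under 0.05. The chromomethylase gene CMT3 (LOC4347954), whose product maintains DNA methylation outside CG sites, gave 243 and 223 in OsBIERF3-OE, against 19.3 and 21.8 in WT, at least 9.11-fold (limma adjusted p = 0.000355). MET1-2 (LOC4342575), a maintenance methyltransferase gene for CG sites, gave 444 and 395 in OsBIERF3-OE, against 51.3 and 44.5 in WT, 8.77-fold (limma adjusted p = 0.000453). Its relative MET1-1 (LOC4334435), named after its values were seen, was near background and overlapped between genotypes, at 39.5 and 25.5 in OsBIERF3-OE, against 26.7 and 21.5 in WT.

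CENH3 (LOC4339159), the centromeric histone H3, rose 6.58-fold, to 334 ± 8.54 in OsBIERF3-OE, against 51.2 ± 10.2 in WT (SD, n = 2 each; limma adjusted p = 0.00122). FAS2 (LOC4344464), a chromatin assembly factor subunit gene, rose 2.16-fold (limma adjusted p = 0.0196), and this call was lost without OsBIERF3-OE replicate 1 (limma adjusted p = 0.057) or WT replicate 2 (0.0785). The histone H2B genes had smaller changes: H2B.10, H2B.7, H2B.6 and H2B.11 rose 2.10-, 1.78-, 1.61- and 1.45-fold, and H2B.5 did not pass. The calls of H2B.6 and H2B.11 were lost without WT replicate 2 (limma adjusted p = 0.077 and 0.104) and without OsBIERF3-OE replicate 2 (0.0709 and 0.0837), that of H2B.6 also without OsBIERF3-OE replicate 1 and that of H2B.11 without WT replicate 1. MSI1, a histone-binding protein gene of chromatin assembly, had a log2 change of 0.46 (limma adjusted p = 0.0364); its call was lost whichever array was left out, and its second probe set did not pass. The H2B genes and MSI1 were named after their values were seen. Histone genes of 1 family are close to identical, so their probe sets can read each other's transcripts.

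Of 3 DNA repair genes with links to PCNA, EXO1 (LOC4327899), an exonuclease gene, rose at least 1.36-fold, at 39.1 and 30.9 in OsBIERF3-OE, against 11.6 and 17.1 in WT (limma adjusted p = 0.0198). The call was lost without OsBIERF3-OE replicate 1 (limma adjusted p = 0.0545) or WT replicate 1 (0.0554). The helicase gene RTEL1 and the nuclease gene MUS81 had log2 changes of 0.25 and -0.05 and did not pass.

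The genes with a name whose profile was most like that of the 9 genes were found by the root mean square difference between log2 signals over the 4 arrays, each gene centred on its own mean, from the median profile of the 9. With 4 arrays in 2 groups, this measure rests mostly on the size of the difference between the genotypes. Of 2194 candidates the nearest 8 were GRF1, RBR1, CMT3, C3H23, CDKB2-1 (also CDC2Os-3), CYCA2-1, GRF7 and CYCB2, at 0.05 to 0.18. They encode growth-regulating factors (GRF1 and GRF7), a CCCH zinc finger protein (C3H23), a B-type cyclin-dependent kinase (CDKB2-1) and cyclins (CYCA2-1 and CYCB2), beside RBR1 and CMT3 described above.

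GRF1 (LOC4330903), the closest, gave 249 and 197 in OsBIERF3-OE, against 19.6 and 18.2 in WT. CDKB2-1 (LOC4346016), above background on all 4 arrays, gave 385 and 377 in OsBIERF3-OE, against 37.3 and 35.4 in WT. CYCA2-1 (LOC4352280) gave 656 and 645 in OsBIERF3-OE, against 55.2 and 67.4 in WT. On the same measure the distances of the 9 genes from their own median ran from 0.08 for MCM7 to 0.92 for ORC1/ORC5, with MCM5 at 0.26, PCNA at 0.33 and MCM3 at 0.72. These distances use WT signals under background for 6 of the 9 genes and 6 of the nearest 8, so their order is not a rank of the true profiles.

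Several measures outside the replication genes also differed between the genotypes. For the leaf label, RBCS, the small subunit of Rubisco, read 18046 and 18252 in OsBIERF3-OE, against 17364 and 17546 in WT, and of 4 tested mesophyll markers 2, PSAG and RCA, were called lower and 2 did not pass. The summed signal of 5 measured mesophyll markers was 35610 to 36985 in OsBIERF3-OE and 38774 to 39273 in WT, and RBCS1 was under background on all arrays. Among 9 measured markers of shoot meristem and leaf primordium, 6 were above background on no array, among them OSH1 at 4.41 and 4.63 in OsBIERF3-OE and 5.22 and 4.41 in WT; LOG and OSH45 fell, by 1.18 and 1.03 on the log2 scale, and the other 4 tested did not pass. The summed signal of the 9 was 1618 to 1956 in OsBIERF3-OE and 3434 to 3607 in WT. Most of it came from LOG and OSH45, so the sum does not speak for the other markers. LOG read 945 and 657 in OsBIERF3-OE, against 1700 and 1869 in WT, and OSH45 658 and 655, against 1360 and 1330. The related genes OSH1, OSH3, OSH6, OSH43 and OSH71 were above background on no array, so OSH45 was not read as a measure of meristem cells. Log2 changes were 0.38 for OSH3, 0.39 for OSH43 and 0.14 for WOX4, all under background, and -0.38 for FON1. Of 3 measured root markers, SHR1 rose, at least 1.61-fold, and QHB and SCR1 were above background on no array; the sum was 77.8 to 82.9 in OsBIERF3-OE and 43.0 to 44.5 in WT. Of 13 measured flower and pollen markers DL rose 1.78-fold, 6 were too dim to test and 6 did not pass. Among those that did not pass, MADS58 read 22.9 and 12.6 in OsBIERF3-OE, against 74.2 and 35.8 in WT. MADS1 read 33.5 and 15.5 in OsBIERF3-OE, against 38.0 and 65.4 in WT. At an unadjusted limma p under 0.05, 1 of the flower and pollen markers was higher and 2 were lower. The sums were 444.7 to 916 in OsBIERF3-OE and 487 to 493 in WT. The 916 rests on 1 gene on OsBIERF3-OE replicate 2, LOC4343851 at 592. That gene read 123 on OsBIERF3-OE replicate 1, and 147 and 138 in WT. The name MADS2 matched both LOC4343851 and LOC4325001. The latter read 43.0 and 35.2 in OsBIERF3-OE, against 28.0 and 37.8 in WT. In leaf samples of mixed cells, a different share of dividing cells and a different amount of RNA per cell cannot be told apart.

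For GAPDH, the 3′ over 5′ signal ratio, a sign of RNA or cRNA integrity, was 7.37 and 7.25 in OsBIERF3-OE, against 12.8 and 11.2 in WT. The same ratio of actin was 29.1 and 24.0 in OsBIERF3-OE, against 39.9 and 37.7 in WT. A second pair of actin probe sets gave a ratio of 5.73 and 4.81 in OsBIERF3-OE, against 9.45 and 9.45 in WT. That of ubiquitin was 1.17 and 1.24 in OsBIERF3-OE, against 1.52 and 1.38 in WT, and that of cyclophilin was 1.82 and 1.81 in OsBIERF3-OE, against 1.71 and 1.82 in WT, where the genotypes overlapped. All 36 probe sets of spiked poly-A controls were dimmer in OsBIERF3-OE, with a mean log2 change of -0.60, and 26 of 27 hybridization controls, with a mean log2 change of -0.29. The part of these measures and of the cell type markers in the differences of the 9 genes was not tested. Scaled on those hybridization controls instead, the log2 changes of the 9 genes lay between 1.96 for ORC1/ORC5 and 5.25 for MCM3. The median signal of the 4 arrays lay between 19.7 and 20.3. This is no check on the control differences, since the sorted deposited values were already nearly the same on each array.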

How the data were processed

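Leaf RNA was hybridized to 1 array per sample. The deposited values are linear signal intensity, 1 value for each probe set. The submitters' processing notes name MAS5 and no other tool; how the arrays were normalized is not given in the sources used here. Sorted log2 values of the arrays lay within 0.0803 of their mean. Values, with a lower limit of 1, were put on the log2 scale; after removal of 123 control probe sets, limma 3.58.1 (R 4.3.3) was run on the 60% with the highest mean, using lmFit, eBayes with trend, genotype alone and Benjamini-Hochberg adjustment, with 2 residual and 5.28 total degrees of freedom. The number of arrays limits the precision. The fit was also run on simulated data with normally distributed spread and few changed probe sets, unlike these arrays. Its outcome there is not reported and is not used as support. Gene names came from the platform annotation, updated by RefSeq (GCF_034140825.1); coordinates were not used. Tables were joined in Python 3.11.15 with pandas 2.3.3.

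The genes and lists were chosen with earlier results of these data known. The rule for named genes took up to 4 genes per list past the adjusted p with the largest change, all 9 genes above, and the 8 most alike. From the lists, 4 genes that matched by spelling alone were left out: OSH1, OSH3, rFCA and a gene also named P125Nap1, which had been called higher. Alternatives were other filters, normalizations, a floor, no trend, the replicate block, 1 mean per gene and each array left out.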

Additional observations from a re-analysis of the deposited data

How the results depend on the processing

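For the 9 genes, all log2 changes stayed positive under the alternatives run, 81 of 96 values within 1 SD of the arrays. That count is no measure of stability. The filters, no trend and the replicate block leave a log2 change as it is. Leaving out 1 of the 2 arrays of a genotype cannot move it by more than this SD. The other 15 values came from hybridization-control scaling (all 9 larger) and from dim signals raised to the background controls (6 smaller, the smallest 0.68 for ORC1/ORC5). Hybridization-control scaling moved the median of all probe sets from -0.04 to 0.25 and the calls to 7729 higher and 1615 lower, against 4273 and 4058, and the list genes to 27 higher and 0 lower. With the replicate block, 2665 probe sets were called higher and 1875 lower, and 17 list genes higher and 0 lower, MCM9, TK, RPA14, RFC5, H2B.6, H2B.11 and MSI1 being lost; same-numbered arrays deviated in opposite directions (correlation -0.25), and the labels do not say that a number pairs samples. A crossed pairing, added after seeing the data, gave 5790 higher and 6549 lower. With each array left out, 2111 (without WT replicate 2) to 2903 probe sets were called higher and 1159 (without WT replicate 2) to 3268 lower, also 2199 higher and 1554 lower without OsBIERF3-OE replicate 2 and 1477 lower without WT replicate 1; of the list genes 14 (without WT replicate 2) to 18 were higher and 0 lower. MSI1 was also lost with no filter (limma adjusted p = 0.0513) and no trend (0.0585). The other alternatives left each count within 1.5 times. Among them, quantile normalization could change little, because the sorted values of the arrays were already close. Fewer residual degrees of freedom remain in the fits with a replicate block or with 1 array left out. Low signals, 6 of 9 genes in WT, limit the folds to bounds.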
